A study of Mus musculus with 3 samples.

Results

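The comparison described here set mouse liver RNA of food-restricted Ercc1 mutant origin against that of freely fed wild-type origin. It used 2 of the 3 libraries of the series, 1 library for each condition, chosen by their titles, and 12127 of the 23850 gene rows listed in each table, those with a level of at least 1 FPKM in either library. FPKM is the number of sequenced fragments per kilobase of transcript, scaled to the size of the library. The restricted library (Ercc1 DR in the labels) came from a compound Ercc1 mutant written as delta/-, kept on dietary restriction. The control (wt AL) came from wild type fed ad libitum. The third library (Ercc1 AL) came from a freely fed mutant of the same delta/- genotype, and its levels are printed beside the others without a comparison of its own. All 3 libraries came from an age of 16 weeks on a hybrid C57BL6J and FVB background, and total liver RNA was depleted of ribosomal RNA with RiboMinus before sequencing. Whether a library holds 1 animal or a pool is not given in the labels, so animal below stands for the source of a library. Genotype and diet differed together between the compared libraries, so their parts in any difference cannot be told apart. With 1 library per group there was no replicate spread, no test and no p-value, and every difference below is one between 2 libraries. In a whole liver, fewer cells of a type and less RNA per cell cannot be told apart either.

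ERCC1 and XPF (the Ercc4 product) together form an endonuclease that cuts DNA beside bulky lesions in nucleotide excision repair and also acts on crosslinks between DNA strands. Mice that carry 1 truncated and 1 null Ercc1 allele have little of this activity and age early, with liver, kidney and nervous system among the tissues affected. In liver, lack of food is known to lower the synthesis of fat and to raise the breakdown of amino acids and the making of glucose from them, and dietary restriction also shifts hormone signals such as growth hormone, insulin and leptin. Many mouse liver genes also differ between the sexes because males release growth hormone in pulses and females more steadily.

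Ercc1 itself was close to the limit of the measurement, at 0.461 FPKM in wild type, 0.573 in the freely fed mutant and 0.475 in the restricted mutant, below the 1 FPKM minimum throughout, so its level did not check the genotype label. Its partner Ercc4 stood at 0.829 FPKM in wild type, 0.985 in the freely fed mutant and 1.01 in the restricted mutant. Y-linked genes were present in each library: Eif2s3y, a translation factor subunit, was at 4.49, 8.60 and 19.5 FPKM (in the order wild type, freely fed mutant, restricted mutant, which is kept below) and Ddx3y, an RNA helicase, at 3.81, 6.50 and 11.2 FPKM. Xist, the RNA made from the inactive X of females, stayed under 1 FPKM, at 0.646, 0.857 and 0.437 FPKM. The animals' sex is not given in the labels.

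Differences are given as log2 ratios of FPKM + 1, restricted mutant over wild type, on which 1 unit is a doubling. The deposited values were higher in the restricted library for most genes: the median ratio over the 9109 rows with at least 1 FPKM in all 3 libraries was 0.594, a 1.51-fold shift, and every log2 ratio below is given after subtracting it. On this centred scale 856 of 12127 rows (7.06%) were higher by 2-fold or more in the restricted mutant and 2246 (18.5%) lower by 2-fold or more. On the values as deposited, 2916 rows (24%) were higher by 2-fold or more and 1047 (8.63%) lower by 2-fold or more, so the share of higher among all called rows was 27.6% after centring and 73.6% before. The median of all compared rows was -0.10, with 10% of rows under -1.48 and 10% over 0.84. The ratio also went with the level of a gene: its median was -0.37 for rows with a mean of at most 2 FPKM, 0.26 at 4 to 8 FPKM, 0.65 at 32 to 64 FPKM and 0.27 over 128 FPKM. A gene group of abundant transcripts therefore starts above the overall median. In the level bins over 16 FPKM (small RNAs left out) 25.3% to 31.5% of rows were higher by 2-fold or more. At a mean of at most 2 FPKM 0.189% were higher and 21.9% lower. For most groups of abundant transcripts the count against genes of like level (a running median by mean level) is given too. On that scale 492 of 12127 rows were higher and 1909 lower. Counts of gene groups below are to be read beside these shares.

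**Figure D1:**
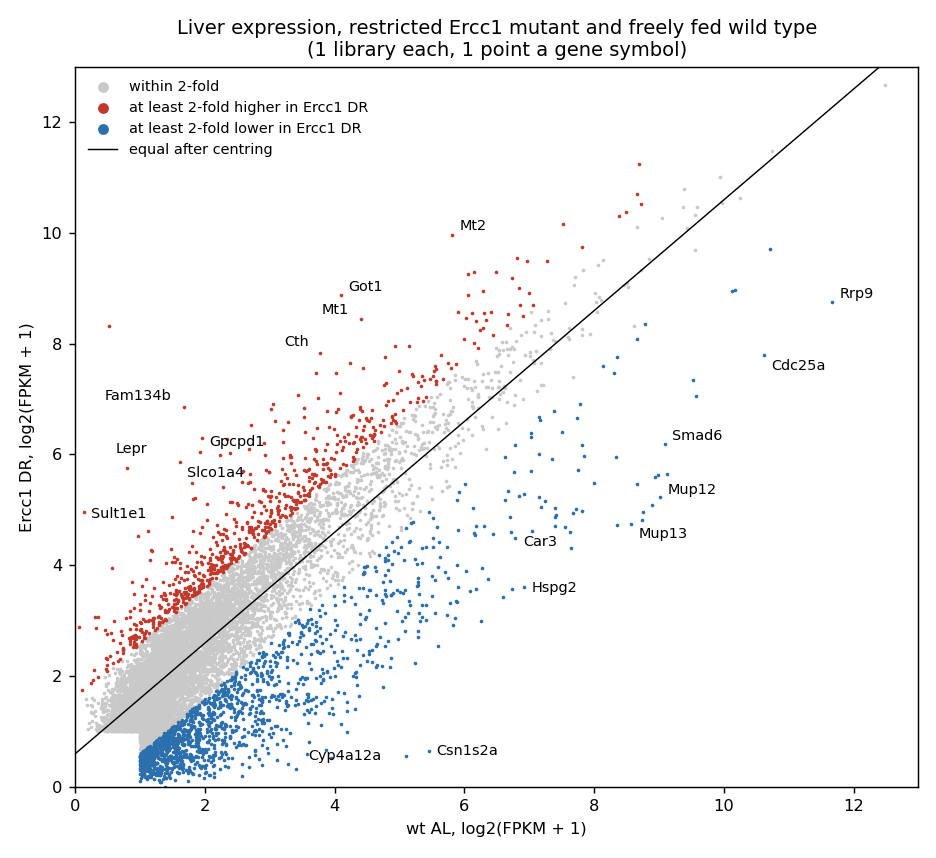
Level of each gene in the wild-type library (x axis) and the restricted mutant (y axis), as log2 of FPKM + 1, 1 point per gene symbol and 1 library per axis. Red points are higher by 2-fold or more and blue points lower by 2-fold or more after centring, and the line marks equal levels after centring; among the labelled genes Fam134b (4.59) and Csn1s2a (-5.41) lie farthest from it on either side.

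The 15 genes highest and the 15 lowest by log2 ratio, among 4300 gene symbols that reached 5 FPKM in wild type or restricted mutant, set the range of the comparison. Of those 4300, 717 were higher by 2-fold or more and 524 lower by 2-fold or more. Among the highest was Fam134b (chr15:25843264-25973687, mm10), a receptor that feeds endoplasmic reticulum into autophagy, at 2.20 FPKM in wild type, 10.4 in the freely fed mutant and 115 in the restricted mutant (log2 ratio 4.59). Lepr, the leptin receptor, was at 0.738, 1.34 and 53 FPKM (4.36). Both freely fed libraries lay below 11 FPKM for these genes. Sult1e1, the estrogen sulfotransferase, followed at 0.0955, 0.905 and 30.1 FPKM (4.23). Got1, the cytosolic aspartate aminotransferase, was at 16.1, 41 and 470.3 FPKM (4.19). The highest 15 also held Gpcpd1, Slco1a4, Mt2, Slc25a22, Cth, Mt1, Slc7a2, Wdr92, Agxt2l1 and Sds, with log2 ratios from 3.74 for Gpcpd1 down to 3.21 for Sds. Gpcpd1, which splits glycerophosphocholine, was at 2.88, 16.2 and 77.3 FPKM, and Wdr92 at 7.27, 17.2 and 119 FPKM (3.27). Slc25a22, Cth, Slc7a2 and Sds carry or break down amino acids and are taken up with their pathways.

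At the low end stood Csn1s2a (chr5:87774567-87788797, mm10), a casein of milk, at 43 FPKM in wild type, 2.96 in the freely fed mutant and 0.563 in the restricted mutant (log2 ratio -5.41). Cyp4a12a, a male-specific fatty acid hydroxylase, was at 33.4, 9.82 and 0.462 FPKM (-5.15). For both genes the freely fed mutant lay between the other libraries. Of the next 13, 4 were major urinary proteins, Mup13, Mup12, Mup8 and Mup9. The remaining 9 were Cartpt, a neuropeptide, the keratin-associated Krtap20-2 and Krtap1-3, Hspg2, the basement membrane proteoglycan perlecan, Ttk, a mitotic kinase, Adam33, the skin envelope gene Lce3a, and the ubiquitin ligases March9 and Trim50. Hspg2 was at 120.4, 47.1 and 11.2 FPKM (-3.91), and Krtap20-2 at 199, 84.7 and 18.9 FPKM (-3.93). Cartpt was at 14.4, 1.69 and 0.439 FPKM (-4.01). Ttk was at 17.2, 4.50 and 0.977 FPKM (-3.80) and Adam33 at 13.6, 1.96 and 0.593 FPKM (-3.79). Genes of skin, milk and brain at such levels are not ones a liver is known for, and each of these 9, except Lce3a, was also lower in the freely fed mutant than in wild type by the deposited FPKM. Lce3a was at 95.5, 128 and 9.72 FPKM.

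Sex-biased liver genes held several of the largest differences on both sides. Of 23 female-biased genes compared, 10 were higher by 2-fold or more and 1 lower, with a median of 0.81 (all rows -0.10, 7.06% higher); against genes of like level the counts were 13 and 1. Beside Sult1e1, the organic anion transporter Slco1a4 was at 2.06, 3.60 and 56.9 FPKM (3.65). Cyp2a4, a steroid 15-alpha-hydroxylase, was at 8.74, 17.8 and 95.6 FPKM (2.71), with its near copy Cyp2a5 at 26.5, 52.5 and 215 FPKM (2.38), and reads shared between them cannot be assigned. Both were highest in the restricted mutant and lowest in wild type. Cyp2c39, a cytochrome P450 of the 2C family, was at 12.4, 3.33 and 129 FPKM (2.69), so the freely fed mutant was the lowest of the 3. The 3A cytochromes Cyp3a41a, Cyp3a44 and Cyp3a16, which are close copies of each other, had log2 ratios of 2.46, 2.32 and 1.80. Sult3a1, an amine sulfotransferase, went from 0.235 FPKM in wild type and 0.315 in the freely fed mutant to 7.41 (2.17). The exception was A1bg, at 2.61, 0.433 and 0.665 FPKM (-1.71).

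Of 17 male-biased genes, 7 were lower by 2-fold or more and 1 higher, with a median of -0.61 (all rows 18.5% lower); against genes of like level 8 were lower and none higher, and on the deposited scale 4 were lower and 4 higher. Hsd3b5, a male-specific enzyme of steroid reduction, was at 3.17, 10.5 and 0.166 FPKM (-2.43). Elovl3, a fatty acid elongase, was at 3.34, 11.6 and 0.304 FPKM (-2.33). In both cases the freely fed mutant was the highest library and the restricted one was below 1 FPKM. Cyp4a12b, the neighbour and near copy of Cyp4a12a, was at 10.9, 4.92 and 0.504 FPKM (-3.58). Cyp2d9, a testosterone 16-alpha-hydroxylase, was at 97.6, 119 and 61.2 FPKM (-1.26). Ugt2b1, a glucuronosyltransferase, was the member on the higher side, at 21.4, 95 and 72.9 FPKM (1.13).

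The major urinary proteins, pheromone carriers secreted by the liver and most abundant in males, were the list with the lowest median, -3.80. Of 19 members compared 18 were lower by 2-fold or more and none was higher, and this held on the deposited scale as well. Mup13 (chr4:61224307-61228286, mm10) was at 379, 837 and 25.8 FPKM (-4.42). Mup12 was at 516, 1148 and 36.5 FPKM (-4.38), and Mup3, the most abundant in wild type, at 1678, 3114 and 836 FPKM (-1.60). In each case the freely fed mutant was the highest library and the restricted mutant the lowest. The Mup genes are near-identical copies in a cluster on chromosome 4, so the division of reads among them is uncertain, and 7 of the 18 lower members have no estimate in the freely fed mutant. The member within 2-fold was Mup20, at 368, 3205 and 516 FPKM (-0.11). Over the 12 members with estimates in all 3 libraries the summed level was 4271 FPKM in wild type, 11696 in the freely fed mutant and 1660 in the restricted mutant.

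The growth hormone pathway, known to set this sex bias, was near the background as a list: of 18 genes of the growth hormone and IGF1 axis 2 (11.1%) were higher by 2-fold or more and 3 (16.7%) lower, against 7.06% and 18.5% of all rows. Ghr, the growth hormone receptor, was at 59.6, 57.6 and 39.1 FPKM (-1.19). Igf1, its main secreted product, was at 19.2, 27.6 and 56.1 FPKM (0.91) and did not reach 2-fold. Cish, a target gene that dampens the receptor's signal, was at 9.73, 0.981 and 4.94 FPKM (-1.45), lowest in the freely fed mutant; an annotated antisense transcript shares 13.1% of its exonic bases and strand was not recorded in the sources used here. Bcl6, a repressor of female-biased genes in male liver, was at 5.01, 5.56 and 1.35 FPKM (-1.95). Socs2, another feedback inhibitor, was at 6.50, 5.88 and 19.7 FPKM (0.87). On the higher side lay the IGF-binding proteins Igfbp2, at 7.44, 26.2 and 96 FPKM (2.93), and Igfbp1, at 6.63, 5.70 and 39.3 FPKM (1.81). Igfbp2 was also higher in the freely fed mutant than in wild type, whereas Igfbp1 was not.

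Among genes of insulin, leptin and nutrient sensing 5 of 30 were higher by 2-fold or more and 1 lower (all rows 7.06% and 18.5%), or 3 and 2 against genes of like level. Lepr had by far the highest ratio of these 30. Klb, the co-receptor for FGF21, was at 2.10, 2.34 and 10.1 FPKM (1.24), while Fgf21, the fasting hormone of the liver, was at 2.76, 0.932 and 0.555 FPKM (-1.87). Insr, the insulin receptor, was at 4.13, 5.57 and 10.9 FPKM (0.62) and Irs2, its adaptor, at 1.81, 1.72 and 1.73 FPKM (-0.63), neither past 2-fold. In the thyroid hormone list 3 of 11 were higher and 4 lower. Dio1, the deiodinase that activates thyroid hormone in liver, was level in both freely fed animals and low in the restricted one, at 11.1, 11.2 and 0.755 FPKM (-3.38). Thrsp, a thyroid-hormone-responsive gene of fat synthesis, was at 78.3, 26 and 25.2 FPKM (-2.19). Slc16a10, a transporter of aromatic amino acids and thyroid hormone, was at 2.53, 5.96 and 23.4 FPKM (2.20).

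**Figure D2:**
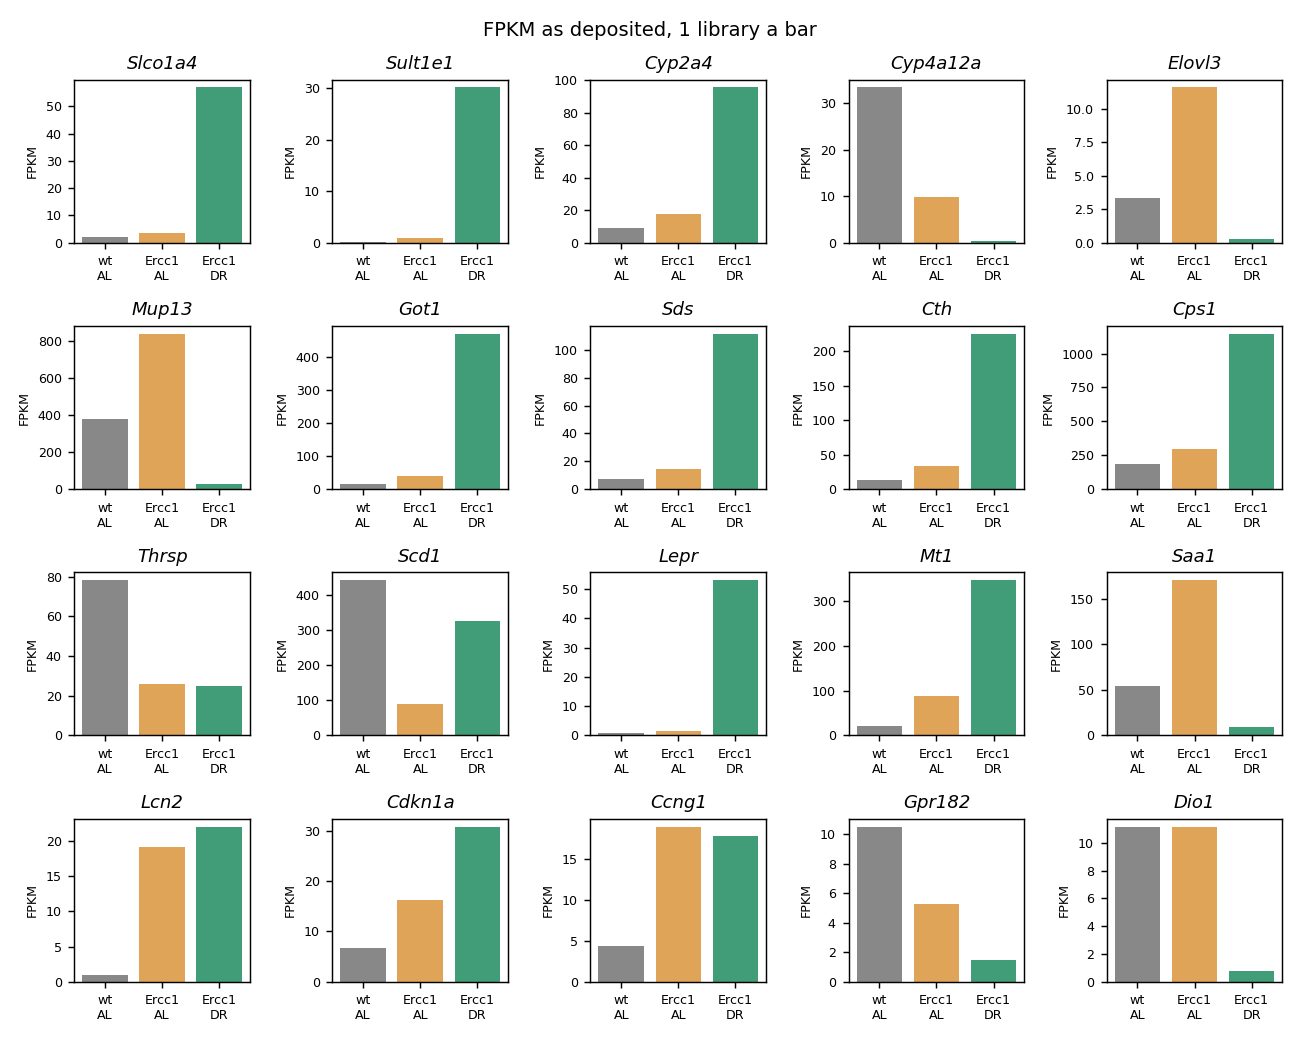
Deposited FPKM of 20 genes named in the text, 1 bar per library (wild type freely fed, Ercc1 mutant freely fed, Ercc1 mutant restricted), each panel on its own axis from 0. Slco1a4, Sult1e1, Lepr, Got1 and Sds stand high only in the restricted library of these 3, Mup13, Elovl3 and Saa1 are highest in the freely fed mutant and lowest in the restricted one, and Lcn2 and Ccng1 are above wild type in both mutants.

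Enzymes that break down amino acids held many genes on the higher side. Of 44 compared, 21 (47.7%) were higher by 2-fold or more and none was lower, with a median of 0.95 (all rows 7.06% higher and 18.5% lower). Against genes of like level 15 were higher and none lower, beside 492 and 1909 of 12127 rows. Transamination of aspartate and alanine showed it in Got1 and in the alanine aminotransferases Gpt, at 11.1, 23.4 and 52.4 FPKM (1.54), and Gpt2, at 19.9, 43 and 111 FPKM (1.83). Sds, which turns serine into pyruvate, was at 7.08, 14.3 and 112 FPKM (3.21). Its exons share 28.0% of their bases with Plbd2 on the opposite strand. Agxt2l1, a lyase that breaks down phosphoethanolamine, was at 5.53, 4.75 and 91.4 FPKM (3.23), and Aass, the first enzyme of lysine breakdown, at 12.2, 26.7 and 177 FPKM (3.16). Agxt, the alanine-glyoxylate aminotransferase, was at 5.41, 21.8 and 67.4 FPKM (2.82). Slc25a22, a mitochondrial glutamate carrier, was at 2.79, 5.93 and 65 FPKM (3.53), and Glud1, which releases ammonia from glutamate, at 48.6, 66 and 219.7 FPKM (1.56). For these genes except Agxt2l1, the freely fed mutant lay between the other libraries.

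Tyrosine breakdown was higher at successive steps: Tat, the tyrosine aminotransferase, had 74.3, 106 and 304 FPKM (1.42), Hpd 64, 134 and 354 FPKM (1.85) and Hgd 26.3, 56.7 and 151 FPKM (1.89). Tdo2, the rate-limiting enzyme of tryptophan breakdown, was at 111, 219 and 746 FPKM (2.14). Hal, which deaminates histidine, was at 6.97, 10.1 and 50.5 FPKM (2.10). Each of these 5 genes was lowest in wild type and highest in the restricted mutant.

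The urea cycle and glutamine list detoxifies the ammonia released by these enzymes. Of its 16 genes 7 (43.8%) were higher by 2-fold or more and none was lower, with a median of 0.76. Against genes of like level 5 were higher and none lower. Cps1, which takes ammonia into the cycle, was at 182, 299 and 1146 FPKM (2.05). Arg1, which releases urea, was at 89.2, 169 and 626 FPKM (2.20), and Slc25a15, the ornithine carrier of mitochondria, at 15.2, 40.6 and 175 FPKM (2.85). The steps between differed less: Asl was at 52.8, 71.9 and 201 FPKM (1.31), Ass1 at 123, 186 and 296 FPKM (0.66) and Otc at 26, 40.2 and 63 FPKM (0.65), the last 2 short of 2-fold. Nags, which makes the activator of Cps1, was at 5.36, 10.5 and 33.5 FPKM (1.85); other annotated exons cover 21.8% of its bases, on the opposite strand. Slc7a2, which imports arginine and lysine, was at 4.07, 16.2 and 76.2 FPKM (3.33).

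Methionine and cysteine metabolism divided. Of 21 genes 6 (28.6%) were higher by 2-fold or more and 1 (4.76%) lower, with a median of 0.51. Against genes of like level 5 were higher and 2 lower. Cth, which makes cysteine and hydrogen sulfide, was at 12.7, 33.2 and 225 FPKM (3.45), and Cdo1, which oxidises cysteine, at 70, 130.1 and 623 FPKM (2.54). Mat1a, which makes S-adenosylmethionine, was at 106, 188 and 581 FPKM (1.85) and Nnmt, which uses it to methylate nicotinamide, at 15.6, 34.5 and 112 FPKM (2.17). Cbs, the enzyme before Cth, was at 16.8, 25.1 and 33.1 FPKM (0.35), within 2-fold. The gene on the lower side was Csad, which makes taurine from the product of Cdo1, at 16.2, 1.44 and 1.19 FPKM (-3.56), and it was as low in the freely fed mutant.

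Against genes of like level 5 of 21 gluconeogenesis genes were higher and 1 lower. After centring alone 9 (42.9%) were higher by 2-fold or more and none lower, with a median of 0.62. The 9 were mostly the aminotransferases and the malate shuttle, with Mdh1 at 32.3, 39.7 and 111 FPKM (1.16) and Mdh2 at 19, 24.8 and 89.5 FPKM (1.58). The enzymes particular to the pathway were within 2-fold: Pck1, its rate-limiting step, was at 136, 194 and 234 FPKM (0.18), G6pc, which releases free glucose, at 16.6, 22.5 and 19.3 FPKM (-0.38), and Fbp1 at 91.7, 89.6 and 148 FPKM (0.09). The transporter of glucose 6-phosphate, Slc37a4, was at 9.30, 14.6 and 35.3 FPKM (1.22). Among 27 genes of glycolysis and glycogen 6 (22.2%) were higher and 1 (3.70%) lower, and 3 and 3 against genes of like level. Gys2, the liver glycogen synthase, was at 13.8, 26.4 and 72.3 FPKM (1.71), Slc2a2, the liver glucose transporter, at 18.5, 36.3 and 72.5 FPKM (1.32), and Ppp1r3c, which directs a phosphatase to glycogen, at 1.57, 9.70 and 10.4 FPKM (1.55). Pklr, the liver pyruvate kinase, was on the lower side at 27.3, 12.2 and 14.1 FPKM (-1.50); 23.4% of its exonic bases are shared with Hcn3 on the opposite strand.

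Fatty acid synthesis held many genes on the lower side. Of 20 genes 9 were lower by 2-fold or more and 1 higher, with a median of -0.66, and 10 and 0 against genes of like level; as deposited 3 were lower and 2 higher. Both acetyl-CoA carboxylases, which make malonyl-CoA, were lower: Acaca was at 10.1, 3.97 and 5.54 FPKM (-1.36) and Acacb at 7, 2.08 and 3.55 FPKM (-1.41). Me1, which supplies reducing power, was at 36.6, 11.2 and 16.2 FPKM (-1.72), and Acss2, which activates acetate, at 12.8, 4.21 and 5.61 FPKM (-1.65). All 4 genes were highest in wild type and lowest in the freely fed mutant. Scd1, the main desaturase, was at 441, 88.7 and 325 FPKM (-1.04), a small difference as deposited, and Fasn, the synthase itself, was at 13.2, 6.86 and 12.6 FPKM (-0.66). Insig2, which holds back the lipid regulator SREBP, was the member on the higher side, at 11.1, 17.6 and 44.9 FPKM (1.32), while Srebf1, the gene of that regulator, was at 3.57, 5.09 and 9.12 FPKM (0.55).

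Of 23 triglyceride genes 6 (26.1%) were higher by 2-fold or more and 3 (13%) lower, against 7.06% and 18.5% of all rows, and as deposited 9 were higher and 1 lower. Lpin1, which makes diacylglycerol and is induced in fasting liver, was at 8.26, 21.3 and 73.4 FPKM (2.41), and Pnpla2, the first lipase of stored fat, at 1.81, 3.41 and 15.7 FPKM (1.98). G0s2, the inhibitor of that lipase, was at 23.9, 5.17 and 9.95 FPKM (-1.78). So the lipase was higher and its inhibitor lower than in wild type. Cd36, a fatty acid importer, was at 8.01, 8.45 and 44.9 FPKM (1.75), and Cidec, a lipid droplet protein, at 1.01, 1.56 and 8.18 FPKM (1.60). Plin2, which coats droplets, was at 43, 40.5 and 30 FPKM (-1.10).

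Fatty acid oxidation differed little from genes of like level: 4 of 29 were higher by 2-fold or more and 1 lower after centring, and 0 and 1 against genes of like level. Cpt1a, the gate of mitochondrial oxidation, was at 13.1, 34.2 and 55.5 FPKM (1.41). Fasting targets of the receptor PPARA split, with 6 of 22 higher and 3 lower, or 4 and 3 against genes of like level. The omega-hydroxylases Cyp4a10 and Cyp4a14 were at 10.5, 17.2 and 113 FPKM (2.72) and 15.9, 10.6 and 138 FPKM (2.44). Angptl4, which blocks lipoprotein lipase, was at 31.3, 14.9 and 10.4 FPKM (-2.09), and Fabp1, the liver fatty acid binding protein, at 1119.6, 939 and 494 FPKM (-1.77). Pdk4, another such target, was at 0.789, 0.662 and 1.99 FPKM (0.15). The receptor's own gene, Ppara, was at 9.34, 17.9 and 23.1 FPKM (0.63).

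Cholesterol genes were near the background, with 2 of 27 higher by 2-fold or more and 3 lower. The 2 were the transporters that export sterols into bile, Abcg5 at 2.54, 9.31 and 35.7 FPKM (2.78) and Abcg8 at 1.72, 4.37 and 11.5 FPKM (1.61). In bile acid synthesis and transport 7 of 25 were higher and 2 lower, or 5 and 2 against genes of like level. Cyp39a1, a hydroxylase of 24-hydroxycholesterol, was at 2.60, 3.04 and 35.9 FPKM (2.76), Acox2, which shortens the side chain, at 3.07, 8.71 and 33.2 FPKM (2.48), and Cyp8b1, which sets the share of cholic acid, at 10.1, 9.59 and 5.82 FPKM (-1.30). Cyp7a1, the rate-limiting enzyme of bile acid synthesis, was within 2-fold, at 12.7, 20.3 and 22 FPKM (0.16), and Nr0b2, its repressor, was at 1.23, 5.56 and 8.93 FPKM (1.56).

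Drug-metabolising enzymes were more often higher, with 16 of 40 (40%) higher by 2-fold or more and 4 (10%) lower. Their median was 0.77, and against genes of like level 15 were higher and 6 lower. Sult1d1, a sulfotransferase, was at 9.82, 33.6 and 133 FPKM (3.03), and Fmo5, a flavin monooxygenase, at 20.6, 52.5 and 189 FPKM (2.54). Cyp2e1, which oxidises ethanol, was at 415, 1164 and 2431 FPKM (1.95), and Cyp3a11, the main drug-oxidising cytochrome, at 125, 77.2 and 716 FPKM (1.92). Por, the reductase that feeds electrons to the cytochromes among them, was at 26.8, 52.1 and 156 FPKM (1.90). Their xenobiotic receptors were within 2-fold, Nr1i2 (PXR) at 2.03, 5.30 and 6.59 FPKM (0.73) and Nr1i3 (CAR) at 7.77, 7 and 8.11 FPKM (-0.54), the second with 66.1% of its exonic bases shared with Tomm40l. On the lower side were the carboxylesterases Ces1f, at 39.7, 16.3 and 8.69 FPKM (-2.66), and Ces1e, at 22.2, 8.43 and 8.09 FPKM (-1.95), and Cyp2c65, at 5.83, 1.43 and 0.585 FPKM (-2.70). In each of these 3 wild type was the highest library and the restricted mutant the lowest.

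In the NRF2 and glutathione list, 9 of 30 were higher and none lower against genes of like level. After centring alone 11 (36.7%) were higher by 2-fold or more and none was lower, with a median of 0.72. All but Srxn1 and Cbr1 of the 11 were glutathione S-transferases, which attach glutathione to reactive compounds: Gstm3 was at 8.24, 17 and 86.3 FPKM (2.65), Gsta2 at 1.24, 2.17 and 18.4 FPKM (2.52) and Gsta4 at 8.19, 12.7 and 60.5 FPKM (2.15). The Gsta and Gstm genes are families of close copies. Other NRF2 targets did not reach 2-fold: Nqo1, a quinone reductase, was at 0.912, 1.77 and 4.35 FPKM (0.89), Gclc, which starts glutathione synthesis, at 8.94, 16.4 and 23.7 FPKM (0.72), and Hmox1, heme oxygenase, at 4.83, 7.29 and 4.96 FPKM (-0.56). In superoxide and peroxide detoxification 2 of 19 were higher and none lower, or 1 and 1 against genes of like level. Sod1 was at 161, 181 and 289.5 FPKM (0.25) and Cat, catalase, at 147, 198 and 152 FPKM (-0.55).

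The metallothioneins, small proteins that bind zinc and copper, were among the highest 15. Mt2 was at 55.1, 172 and 991 FPKM (3.55) and Mt1 at 20.3, 87.9 and 347 FPKM (3.44), and in both the freely fed mutant was also above wild type. An annotated antisense transcript shares 73.5% of the exonic bases of Mt2. Their genes lie side by side on chromosome 8 and are textbook targets of the metal-sensing factor MTF1 through metal response elements. To show these sequences, the 250 bases before each RefSeq start (GRCm38.p6, plus strand) are printed 5′ to 3′, with matches to the element's core in capitals (TGCACNC or TGCGCNC, either strand). Mt1 spans chr8:94178839-94179088 and Mt2 spans chr8:94172368-94172617.
Mt1: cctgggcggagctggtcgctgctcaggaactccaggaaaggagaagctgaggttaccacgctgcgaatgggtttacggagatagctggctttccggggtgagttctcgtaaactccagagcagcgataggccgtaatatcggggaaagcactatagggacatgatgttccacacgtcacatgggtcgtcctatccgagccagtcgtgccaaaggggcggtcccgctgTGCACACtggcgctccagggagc
Mt2: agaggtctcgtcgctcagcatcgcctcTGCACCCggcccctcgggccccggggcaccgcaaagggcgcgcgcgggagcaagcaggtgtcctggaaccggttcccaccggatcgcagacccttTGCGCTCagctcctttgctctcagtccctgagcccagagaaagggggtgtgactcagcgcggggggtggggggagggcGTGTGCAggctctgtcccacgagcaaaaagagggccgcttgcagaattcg
Mt1 had 1 match, starting 23 bases before the start, and Mt2 had 3, starting 223, 128 and 50 bases before it. The same core is frequent: 23.8% of the 27025 genes in the table held at least 1 match in the same window. These genes and this motif were chosen after their values were seen.

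Acute phase genes, made by hepatocytes in inflammation, diverged within the list, with 11 of 31 higher by 2-fold or more and 4 lower (7 and 5 against genes of like level). The 4 were the serum amyloid A genes: Saa1 was at 54.2, 171 and 8.94 FPKM (-3.07), Saa2 at 16.1, 84.2 and 3.50 FPKM (-2.52), Saa3 at 3.11, 5.95 and 1.29 FPKM (-1.44) and Saa4 at 18, 22.2 and 5.36 FPKM (-2.17). All 4 were highest in the freely fed mutant and lowest in the restricted one. Lcn2, which binds bacterial iron carriers, was instead high in both mutants, at 0.959, 19.1 and 22 FPKM (2.96). Hamp, the iron hormone hepcidin, was at 65.7, 148 and 608 FPKM (2.60), and Hp, haptoglobin, at 276, 466 and 441 FPKM (0.08). Interferon genes were near the background, with 1 of 34 higher and 6 lower: Mx2 was at 3.74, 2.10 and 1.18 FPKM (-1.71), Oasl2 at 2.83, 2.10 and 0.893 FPKM (-1.61) and Usp18, an inhibitor of the response, at 2.04, 3.30 and 12 FPKM (1.50). Complement and coagulation genes were split, 7 of 40 higher and 3 lower, or 4 and 5 against genes of like level. Pros1, protein S, was at 3.85, 9.68 and 41.6 FPKM (2.54) and C4b at 58.8, 59 and 23.9 FPKM (-1.86).

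Among 26 heat shock chaperones 4 were higher by 2-fold or more and 2 lower, or 2 and 2 against genes of like level. The partners of the mitochondrial chaperonin were on the higher side, Hspd1 at 29.6, 52 and 106 FPKM (1.20) and Hspe1 at 16, 33.2 and 74.7 FPKM (1.56), with the mitochondrial Hspa9 at 22.8, 37.4 and 110.1 FPKM (1.63). Hspb1, a small heat shock protein of the cytosol, was on the lower side at 38, 23.9 and 11.4 FPKM (-2.24). Hspa1a, the inducible HSP70, was at 0.959, 1.89 and 1.51 FPKM (-0.24), within 2-fold. Heat shock factor binds inverted GAA units, searched here as GAANNTTC, which reads the same on both strands. It occurred in 7 of 21 list genes with a promoter in the table, including 3 of 5 past 2-fold, and in 7.73% of all genes of the table (2088 of 27025), where a gene can have several promoters. Promoters of Hspb1 (chr5:135887669-135887918, plus strand) and Hspe1 (chr1:55087898-55088147, plus strand), genes on opposite sides of the comparison that both hold the motif, are shown for the same window with matches in capitals.
Hspb1: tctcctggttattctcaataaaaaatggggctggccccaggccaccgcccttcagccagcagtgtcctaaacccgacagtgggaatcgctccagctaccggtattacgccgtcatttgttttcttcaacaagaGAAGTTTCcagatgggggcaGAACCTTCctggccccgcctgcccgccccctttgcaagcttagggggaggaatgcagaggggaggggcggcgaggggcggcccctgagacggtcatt
Hspe1: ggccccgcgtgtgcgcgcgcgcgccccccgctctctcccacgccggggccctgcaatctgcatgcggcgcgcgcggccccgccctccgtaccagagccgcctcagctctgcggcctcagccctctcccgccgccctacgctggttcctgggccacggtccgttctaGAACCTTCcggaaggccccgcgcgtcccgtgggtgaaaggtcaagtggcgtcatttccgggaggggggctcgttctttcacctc
Hspb1 held 2 matches, starting 117 and 97 bases before the start, and Hspe1 held 1, starting 84 bases before it. Hspd1 is transcribed away from Hspe1 on the other strand, and 1 of its 2 windows in the table overlaps that of Hspe1 and holds 1 match starting 139 bases before its own start, the same 8 bases as the match of Hspe1 read on the other strand, so 2 of the 3 genes past 2-fold with the motif share 1 site. The motif was thus present on both sides of the comparison.

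The unfolded protein response was near level, with none of 29 higher by 2-fold or more and 1 lower, Creld2, a protein of the endoplasmic reticulum, at 8.26, 15.6 and 4.68 FPKM (-1.30). Hspa5, the chaperone BiP, was at 53.9, 138 and 105 FPKM (0.36) and Ddit3, which encodes CHOP, at 3.23, 5.44 and 3.25 FPKM (-0.59). In both, the freely fed mutant was the highest library. Autophagy and lysosome genes counted 4 of 33 higher and 1 lower, or 2 and 2 against genes of like level. Ctsl, a lysosomal protease, was at 17.9, 39.5 and 200.2 FPKM (2.82), with 28.2% of its exonic bases shared with another annotated gene, and Ctss, a protease of macrophages, at 34.7, 19.2 and 8.69 FPKM (-2.48). Bnip3, a mitophagy receptor, was at 17.6, 29.7 and 73.1 FPKM (1.40).

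Genes of the DNA damage response, the pathway the mutation touches, were mostly of low level. At a mean of at most 2 FPKM only 0.189% of rows (small RNAs left out) were higher by 2-fold or more, so few such genes could be called higher. With a minimum of 5 FPKM, 6 excision repair genes remained, none past 2-fold, with a median of 0.73. None of 26 nucleotide excision repair genes passed 2-fold in either direction (median 0.05, all rows -0.10 with 7.06% higher and 18.5% lower), while 6 were higher as deposited and 3 with a pseudocount of 0.1; Xpa, which checks the lesion, was at 1.63, 2.18 and 6.10 FPKM (0.84) and Xpc, which finds it, at 0.837, 1.32 and 1.70 FPKM (-0.04). Of 24 p53 targets 5 (20.8%) were higher by 2-fold or more and none lower, with a median of -0.02. With the minimum of 5 FPKM 5 of 10 were higher (median 0.91), beside 825 of 5271 rows. Cdkn1a, which encodes p21 and halts the cell cycle, was at 6.72, 16.3 and 30.8 FPKM (1.45), Sesn1, a stress-induced brake on mTORC1, at 0.803, 1.65 and 7.32 FPKM (1.61), and Ccng1, a cyclin induced by p53, at 4.38, 19 and 17.8 FPKM (1.21). These 3 were higher in both mutants than in wild type as deposited. Against genes of like level 1 was higher and 1 lower. Mdm2, which degrades p53, was at 4.16, 4.56 and 6.75 FPKM (-0.01), and Bax, which permeabilises mitochondria, at 3.12, 5.82 and 4.46 FPKM (-0.19). Eda2r, a death receptor induced by p53, was at 0.740, 3.36 and 1.18 FPKM (-0.27), highest in the freely fed mutant. Cell cycle and replication genes were scarce, 15 of 32 listed reaching 1 FPKM, with 1 higher (Ccnd1, at 1.86, 6.79 and 8.33 FPKM, 1.11) and 3 lower, among them Mcm2, of the replicative helicase, at 12, 5.28 and 1.51 FPKM (-2.97).

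The circadian list was also near the background: 1 of 23 (4.35%) was higher by 2-fold or more and 4 (17.4%) were lower, against 7.06% and 18.5% of all rows, and as deposited 5 were higher and none lower. The time of day of sampling is not given in the labels. Clock was at 12.1, 5.16 and 6.44 FPKM (-1.41) and its relative Npas2 at 2.21, 0.973 and 0.682 FPKM (-1.53), while Arntl, the partner of both, was at 1.49, 1.87 and 3.81 FPKM (0.36). Nr1d1, the repressor REV-ERB-alpha, was at 1.52, 1.45 and 0.503 FPKM (-1.34) and Dbp, an output factor, at 1.22, 1.25 and 0.823 FPKM (-0.88). Usp2, a clock-driven deubiquitinase, was the member on the higher side, at 1.11, 3.90 and 9.34 FPKM (1.70). The E-box core CACGTG, bound by CLOCK, lay in 4 of the 16 list genes with a promoter in the table (6.86% of all genes of the table) and in none of the 5 past 2-fold.

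Ribosomal and mitochondrial genes were higher as groups after centring, but less so against genes of like level. Of 77 cytosolic ribosomal proteins 32 were higher by 2-fold or more and 2 lower (median 0.95), against 6 and 2 at like level. Rps13 was at 30.8, 72 and 180.0 FPKM (1.92) and Rpl38 at 315, 271 and 176 FPKM (-1.42), the ends of the list. For nuclear-encoded subunits of oxidative phosphorylation the counts were 24 and 2 of 76 (median 0.78) and 6 and 2 at like level. Ndufc2, of complex I, was at 11.9, 27 and 67.1 FPKM (1.80). The 2 lower subunits were the isoforms of ATP synthase subunit c, Atp5g1 at 71.3, 32.9 and 25.2 FPKM (-2.06) and Atp5g2 at 101, 53.6 and 39.2 FPKM (-1.93), while the third isoform, Atp5g3, was at 46.2, 64.7 and 159.8 FPKM (1.18). Translation factors counted 14 higher and 1 lower of 57, and 7 and 2 at like level, and mitochondrial ribosomal proteins 9 and 0 of 76, and 1 and 1 at like level.

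**Figure D3:**
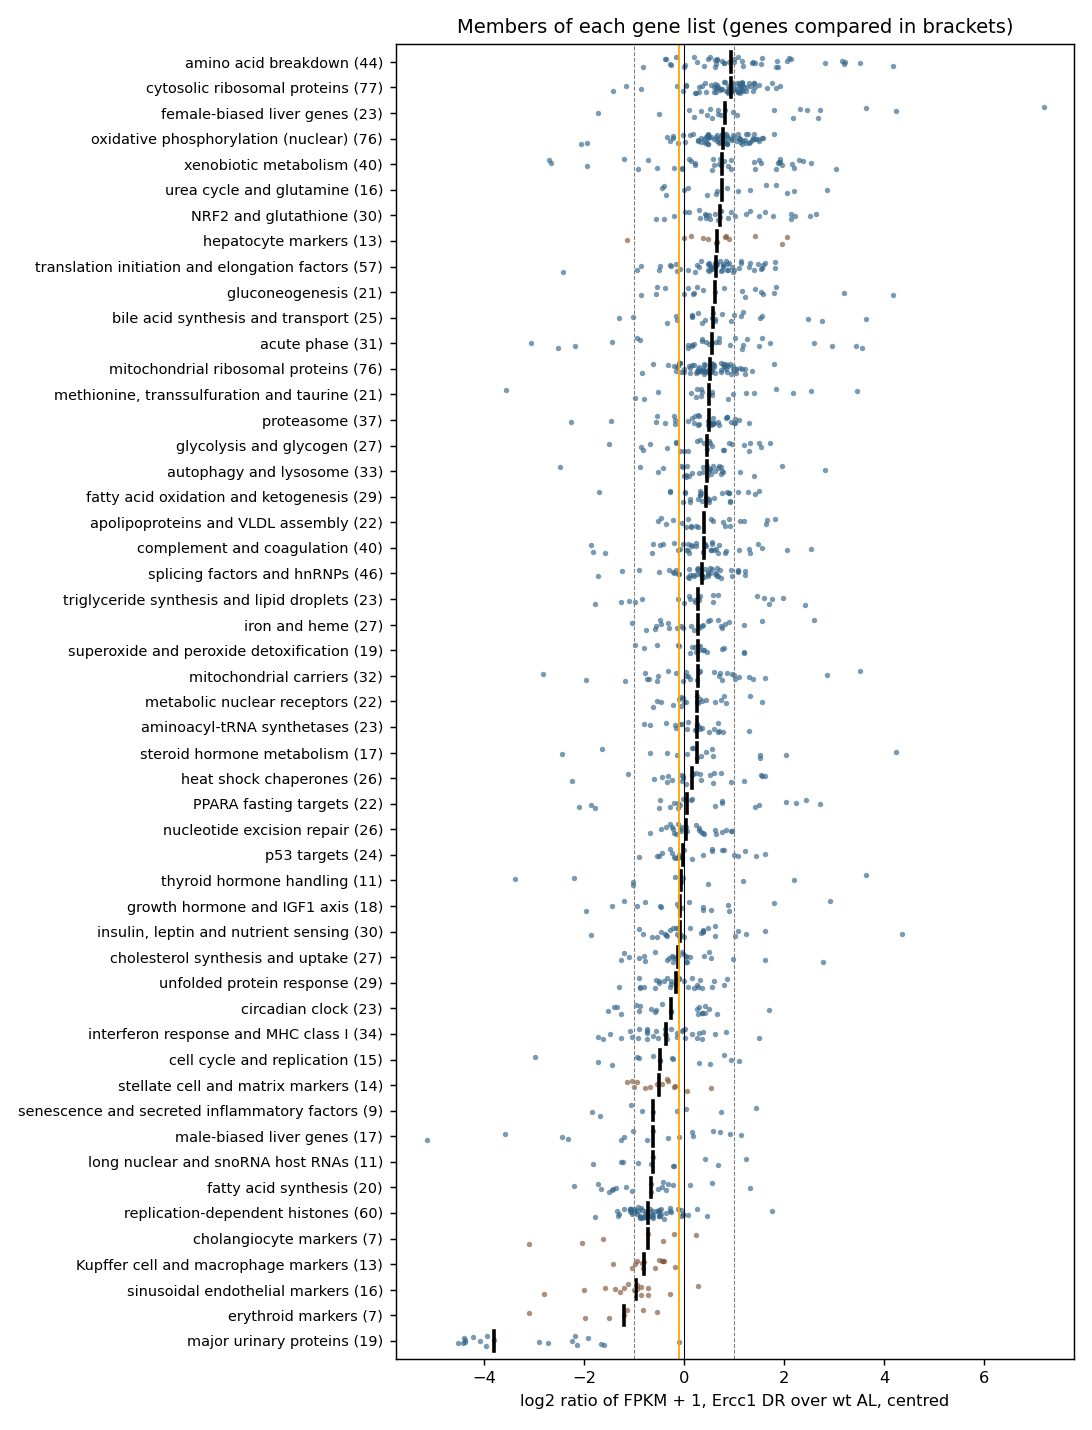
Centred log2 ratio of FPKM + 1 (x axis) for each compared member of the lists with at least 7 compared genes, 1 point per gene, ordered by list median (black bars). Brown points are cell type markers, dashed lines mark 2-fold and the orange line the median of all rows (-0.10); amino acid breakdown has the highest median (0.95, shared with cytosolic ribosomal proteins) and the major urinary proteins the lowest (-3.80).

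Markers of the cell types a liver sample can hold were set beside these lists. Of 13 hepatocyte markers 3 were higher by 2-fold or more and 1 lower, with a median of 0.66 and a summed level of 5601, 6849 and 13580 FPKM; Ttr was at 978, 781 and 2062 FPKM (0.48), and Alb has no estimate in any library. Of 16 sinusoidal endothelial markers 7 (43.8%) were lower and none higher (median -0.97), or 2 and 0 as deposited. Of all rows 18.5% were lower and 7.06% higher, and of rows with a mean of at most 2 FPKM 21.9% and 0.189%. The endothelial sum went from 65.5 and 61.0 FPKM in the freely fed animals to 35.7. Gpr182 was at 10.5, 5.29 and 1.49 FPKM (-2.81), Kdr at 4.67, 3.63 and 1.85 FPKM (-1.58) and Stab2 at 3.40, 2.36 and 1.72 FPKM (-1.29). For Kupffer cells and macrophages 2 of 13 (15.4%) were lower and none higher, near the share of all rows. None passed 2-fold as deposited in either direction, and the sums were 40.5, 54.4 and 34.7 FPKM. For stellate cells and matrix 3 of 14 (21.4%) were lower, also near that share, with sums of 43.7, 60.2 and 58.9 FPKM. For cholangiocytes 3 of 7 (42.9%) were lower, with sums of 18.0, 8.69 and 7.99 FPKM. Erythroid markers, which can report blood in the sample, were lower in 5 of 7 (2 as deposited). Their sum was 935, 592 and 303 FPKM, with Klf1, an erythroid factor, at 758, 480.4 and 133 FPKM. This 1 row held most of the sum in both freely fed libraries, while the globin Hbb-b2 was at 20.7, 16.4 and 13.3 FPKM. The erythroid sum is therefore not taken as a measure of blood. Exocrine pancreas markers were lower in 3 of 5 (1 as deposited), with a summed level of 13.7, 17.8 and 8.52 FPKM. Of 18 markers of T, B and NK cells 17 were under 1 FPKM in both compared libraries. The neutrophil sum, mostly Lcn2 in the mutants, was 16.6, 30.8 and 29.2 FPKM. Of the 4 neutrophil markers compared 1 was higher (Lcn2, 2.96) and 2 were lower, with a median of -1.22. No marker of these lists stood at 0 in both libraries. Deposited sums were thus lower in the restricted mutant than in wild type for endothelial, Kupffer, cholangiocyte, erythroid (mostly Klf1) and pancreas markers. They were also lower for skin and mammary, lymphocyte and skeletal muscle markers, and higher for hepatocyte, stellate, neutrophil and adipocyte markers. These sums are not centred, and the deposited values of the restricted library were shifted up 1.51-fold. After centring none of 14 stellate markers was higher by 2-fold or more (median -0.49). The centred median was -1.22 for neutrophil, 0.66 for hepatocyte and 0.67 for the 3 adipocyte markers compared. The part of these cell types in the gene group differences was not tested.

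Rows of small RNAs and of replication-dependent histones, whose transcripts are short or lack a poly(A) tail, were counted separately. Of 717 small RNA rows compared 393 (54.8%) were lower by 2-fold or more and 78 higher, with a median of -1.16, against a median of -0.04 for 10371 rows with official gene symbols. Of all rows 18.5% were lower and 7.06% higher. Of 60 histone rows 13 (21.7%) were lower and 1 higher (median -0.72), and as deposited 1 was lower and 2 were higher. The histone share was thus near that of all rows and the 21.9% lower among rows with a mean of at most 2 FPKM. Hist1h4d was at 141, 33.7 and 101 FPKM (-1.08), and the linker histone Hist1h1c at 3.89, 8.41 and 24 FPKM (1.76). Histone genes are near-identical copies. Terc, the telomerase RNA, was at 50.9, 53.5 and 21.3 FPKM (-1.82), and Malat1, a long nuclear RNA, at 90.1, 165 and 219 FPKM (0.67).

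Gene length is a natural axis in a repair mutant, since long genes offer more sites for lesions that stall transcription. Across 10347 gene symbols the Spearman rho between gene span and log2 ratio was 0.013, a description across genes of 1 pair of libraries, and within bins of like level it ran from 0.0288 to 0.120. The relation was not monotonic: in 10 bins of equal size by span, the median was -0.28 for the shortest genes (up to 3.73 kb), 0.13 for those of 21.3 to 28.8 kb and -0.26 for the longest (over 103 kb). In the longest bin 2.90% of genes were higher by 2-fold or more and 21.2% lower. Those genes were also the least abundant, with a median level of 2.03 FPKM against 3.21 FPKM in the shortest bin. Restricted to a mean over 8 FPKM, the longest bin (117 genes) had a median of 0.20 and the shortest (326 genes) one of 0.39, against 0.71 for genes of 40.8 to 60.7 kb.

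**Figure D4:**
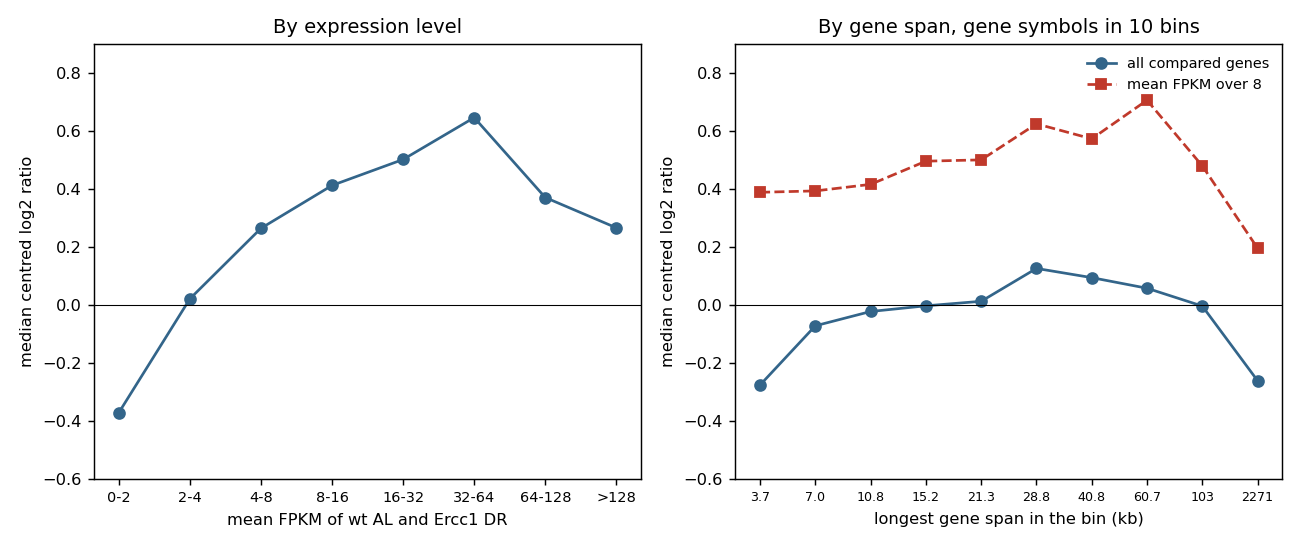
Median centred log2 ratio of FPKM + 1 by mean level of the compared libraries (left) and by gene span in 10 bins (right; each tick gives the longest span of the bin, in kb). Solid lines take all compared genes and the dashed line those with a mean over 8 FPKM; the median is -0.37 at the lowest level and 0.65 at 32 to 64 FPKM, and the longest genes lie below the bins just shorter than them on both lines.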

How the data were processed

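Each of the 3 libraries has a table of 23850 gene rows with an FPKM value, the lower and upper bounds of its interval and a status. The authors deposited these FPKM values as such; the genome build was mm10, per the submitters' processing notes, and no name for the aligner, quantifier or annotation is given in the sources used here. FPKM lay outside its own deposited interval in 9.70% to 13.0% of rows, so the intervals were used only as an alternative. Rows marked HIDATA or FAIL (62 in wild type, 96 in the freely fed mutant, 56 in the restricted mutant) were treated as missing. FPKM carries no depth, and no count model was used. From the values, log2 ratios of FPKM + 1 were computed in Python 3.11.15 with pandas 2.3.3, and the median over rows with at least 1 FPKM in all libraries was subtracted. A gene was called at 2-fold among rows with at least 1 FPKM in either library, a call without a test. The calling script was tested on simulated data. Ratios against genes of like level subtract a running median over 201 genes ordered by mean level.

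Genes were named by rule: Ercc1 and Ercc4, the 15 highest and 15 lowest among gene symbols that reached 5 FPKM in wild type or restricted mutant, up to 8 members per list by size of the ratio together with defining members, and sex chromosome genes. A few genes it selects are not reported here. The comparison and the lists were chosen with earlier results of these data known, so no list is independent evidence of a direction. Promoter sequences are from RefSeq (GRCm38.p6), exon overlaps from GENCODE vM21; whether counting used strand is not stated, so reads of overlapping genes on opposite strands cannot be told apart. The labels say both fresh and frozen for the liver pieces.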

Additional observations from a re-analysis of the deposited data

How the results depend on the processing

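With 1 library per group, only choices of scale and filter could be varied, in 11 alternatives. Of 303 named genes past 2-fold, 176 were past it in the same direction under all 7 alternatives applied to single genes. None was reversed, but this says little. Leaving out the centring moves a ratio by 0.594, less than the 1 unit that a gene past 2-fold would have to cross to change sign. The counts depended on the scale. Without centring 2916 genes were at least 2-fold higher and 1047 lower (856 and 2246 with it). Centred on the running median by level, 492 were higher, and with the offset of log2 FPKM subtracted, an alternative chosen after seeing the data, 563 were. With a minimum of 5 FPKM 1000 were lower. The share of higher among called genes was 27.6%, and 73.6% without centring, 45.2% with the minimum of 5 FPKM and 17.0% with the log2 FPKM offset. The rho of gene span and ratio was 0.0130, and 0.0553 on the running median, 0.0293 with a pseudocount of 0.1, 0.0497 with the minimum of 5 FPKM, 0.0884 with no filter and 0.0283 with rescaling before the pseudocount, also chosen after seeing the data. The cause was not tested. No paired analysis was possible because each group has 1 library. The files give no counts, so the depth behind each value is unknown, and levels near 1 FPKM are the least certain.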

Other observations

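Of 22 genes of apolipoproteins and VLDL assembly 5 were higher by 2-fold or more and none lower (3 and 1 against genes of like level), with Apoa4, an apolipoprotein of fasting and fat intake, at 77.8, 129.8 and 376 FPKM (log2 ratio 1.66) and Scarb1, the HDL receptor, at 5.24, 10.8 and 32.3 FPKM (1.82). Annotated antisense exons overlap Apoa4. Among 17 steroid hormone genes 4 were higher and 2 lower: Hsd17b6, which acts on androgens and retinoids, was at 11.6, 13.6 and 77.3 FPKM (2.04), and Serpina6, the glucocorticoid carrier of plasma, at 39.8, 34.7 and 18.8 FPKM (-1.64). Of 32 mitochondrial carriers 7 were higher and 3 lower, or 5 and 5 against genes of like level, with Slc25a30 at 21.6, 14.3 and 3.85 FPKM (-2.81). Metabolic nuclear receptors counted 2 higher and none lower of 22, iron and heme genes 3 and 1 of 27, and aminoacyl-tRNA synthetases 1 and 0 of 23. The proteasome counted 5 and 2 of 37, splicing factors 5 and 2 of 46, and long nuclear and snoRNA host RNAs 1 and 3 of 11. Against genes of like level these lists counted, in the same order, 2 and 0, 1 and 3, 0 and 1, 0 and 3, 0 and 3, and 0 and 4. In the senescence list 9 of 21 genes reached 1 FPKM, 1 of them higher (Cdkn1a) and 3 lower. Cxcl1, a neutrophil attractant, was at 4.97, 7.15 and 1.52 FPKM (-1.84).

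Among the genes ranked 16 to 40 at the high end, Idh3a, a subunit of isocitrate dehydrogenase, was at 1.17, 5.41 and 23.4 FPKM (2.90), and Acmsd, which diverts tryptophan breakdown from the synthesis of NAD, at 1.82, 5.45 and 28.3 FPKM (2.78). Eif4ebp3, a repressor of translation initiation, was at 3.72, 12 and 62.6 FPKM (3.16). Akr1b7, an aldose reductase relative, was near the limit in both freely fed animals, at 0.490, 0.538 and 14.5 FPKM (2.78). These genes, and those in the next paragraph, were picked from the ranking after their values were seen.

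The genes ranked 16 to 40 at the low end hold rows of several kinds. Car3, an abundant carbonic anhydrase of male rodent liver, was at 198, 127 and 23.2 FPKM (-3.63). Rrp9, which encodes a protein of the small nucleolar RNA complex, was listed at 3262, 1839 and 432 FPKM (-3.51). Cdc25a, a cell cycle phosphatase, was listed at 1576, 1004 and 220.1 FPKM (-3.43), although Mcm2 and Ttk, genes of dividing cells, were at or below 17.2 FPKM in each library. Smad6, an inhibitor of BMP signalling, was at 546, 318 and 71.8 FPKM (-3.50), and Exoc4, a subunit of the exocyst, at 186, 88.8 and 24.7 FPKM (-3.46). The olfactory receptor Olfr1107 was at 12.8, 3.44 and 1.18 FPKM (-3.26) and the pheromone receptor Vmn1r231 at 17.3, 4.09 and 1.87 FPKM (-3.27). In each of these rows, Car3 included, wild type was highest and the restricted mutant lowest, the order also seen for Hspg2, Krtap20-2 and Klf1. Small RNA rows were lower in 54.8% of cases in the same comparison; whether these rows and the small RNAs share a cause was not tested.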
